A study of Mus musculus with 6 samples.

Results

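The 280 probesets described here were lost on Day 7 from genes whose own level was steady. They come from exon arrays of P19 cells, a mouse embryonal carcinoma line that turns into neurons and then glia after retinoic acid. Undifferentiated cells left untreated (Day 0), neuronal cells (Day 7) and cells of the early glial stage (Day 10) were measured with 2 biological duplicates a day and 6 arrays in all. The Day 7 and Day 10 cells had been given 1 µM retinoic acid in aggregation culture for 4 days, and the Day 7 cells had then grown for 3 further days. All 3 stages are the same line, so no day stands for a tissue, and the cultures are mixtures: fewer cells of a type and less RNA per cell cannot be told apart. A probeset is a small group of probes that reads 1 exon or part of an exon. The members were chosen by the measured values themselves. The intensity plus 16 was put on the log2 scale, the level of a gene was taken as the median over its probesets on each array, and the relative level of a probeset was its own log2 level minus that of its gene. Genes had 6 or more probesets, a level of at least 7.5 on Day 0 and Day 7, and a change between those days within 0.5. A member is a probeset of such a gene whose relative level was lower by 1.0 or more on Day 7, which is a halving or more against the rest of its gene. Of 65938 probesets in 3965 genes of steady level, 280 in 245 genes met this rule, or 6.18% of the genes. The series holds 228090 probesets in all.

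In most mammalian genes the exons of the primary transcript can be joined in more than 1 way. Splicing factors bind the exon and the introns around it and decide whether the exon is kept, and alternative promoters and polyadenylation sites change which first and last exons are made. During neural differentiation many exons switch while the transcript as a whole keeps its level. On an exon array such a switch appears as 1 probeset that departs from its neighbours, but so does any probeset with noisy or weak hybridization.

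Sequences were at hand for 3 lost probesets, which are also among the 259 candidate probesets of the study's list that were read here, and they are shown because they are the members whose transcript region can be read directly. They are given 5′ to 3′ as printed in that list, which uses the strand of the gene: the first 20 bases of 10 of the 259 sequences lay in RefSeq promoter windows as written, and those of 0 lay there as reverse complements. No part of them is marked. Ppm1b lies on the plus strand of chromosome 17, Trappc9 on the minus strand of chromosome 15 and Osgin2 on the minus strand of chromosome 4 (gene positions from GRCm38.p6).
Ppm1b 5525269: ttaccaaccttcaattgcatacagtgac
Trappc9 5052177: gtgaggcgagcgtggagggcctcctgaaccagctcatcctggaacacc
Osgin2 4628664: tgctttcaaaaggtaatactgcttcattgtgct
The Trappc9 stretch is 48 bases long with 64.6% G and C, the Ppm1b stretch 28 bases with 39.3%, and the Osgin2 stretch 33 bases with 36.4%. The study picked its candidates on these same arrays, so their presence here is not independent evidence. Of the 259 probesets read here, 69 belonged to genes of steady level, of which 3 were lost and 44 were gained by 1.0 or more. The study used its own splicing index, limit, gene level and filters, so these counts are not at its limits. It also tested some candidates by RT-PCR, and none of the 3 was among them.

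Ppm1b is a metal-dependent serine/threonine phosphatase. Its probeset 5525269 had intensities of 45.3 and 31.9 on Day 7, against 108 and 70.3 on Day 0, and the change in relative level was -1.21 (SE 0.46 in the limma fit described below). The next probeset downstream in the gene, 4698723, was also a member, with 94.7 and 86.4 on Day 7, against 106 and 285 on Day 0, and a change of -1.13. The next one upstream, 5440880, went the other way, with 452 and 294 on Day 7, against 202 and 197 on Day 0, and a change of 0.54. Trappc9 is a subunit of the TRAPP complex of vesicle tethering. Its probeset 5052177 was bright, with 735 and 820 on Day 7, against 1211 and 1396 on Day 0, and its change was -1.12 (SE 0.21). The groups did not overlap, and the neighbours on both sides changed by -0.13 and -0.14. Osgin2 had only 6.1 and 16.8 on Day 7, against 13.5 and 49.5 on Day 0, close to the offset of 16, and its change was -1.03. Its neighbours changed by -0.29 and -0.21.

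Facts of the whole series bear on these readings. Median intensities per array lay between 156 and 216, with the lowest on replicate 1 of Day 10 and of Day 0, and on each array 8.90% to 11.9% of all probesets read less than 16. Duplicates correlated at 0.947 on Day 0, 0.970 on Day 7 and 0.926 on Day 10 across all probesets. By gene level, 12 of 14 neuronal markers were higher by 1.0 or more on Day 7, with Dcx at 11.74 on Day 7 and 5.77 on Day 0, and 7 of 10 markers of undifferentiated cells were lower, with Pou5f1 at 8.55 on Day 7 and 12.31 on Day 0. The glial marker Gfap stood at 5.82, 6.51 and 10.03 on Days 0, 7 and 10. Only 2 of 10 glial markers were higher by 1.0 or more on Day 10 than on Day 7. On Day 7, 2 of the 10 were higher and 2 lower than on Day 0 by that limit. The summed intensity of the 10 was 8791 and 8299 on Day 0, 3947 and 3947 on Day 7 and 4498 and 7929 on Day 10. This sum mostly follows its brightest gene, Gja1, which stood at 12.78, 11.12 and 11.47 on Days 0, 7 and 10. Markers of mesenchyme and smooth muscle were also higher by 1.0 or more in 9 of 12 genes on Day 7, and their summed intensity was 23680 and 27500 on the Day 7 arrays, against 2340 and 2538 on the Day 0 arrays; none of the 12 was near 0 on all arrays. The summed neuronal markers were at 22600 and 25350 on Day 7, against 4217 and 3480 on Day 0. The part of this change in cell make-up in the loss of single exons was not tested.

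The losses were small. The change in relative level had a median of -1.18 and ran from -3.35 to -1.0. It was -1.5 or lower in 46 probesets, -2 or lower in 8 and -3 or lower in 2. There were 96 members between -1.0 and -1.1, next to 145 probesets just outside, between -0.9 and -1.0. Closest inside were probesets of Chd8, Fgd5 and Ing4, at -1.0013, -1.0023 and -1.0027, and closest outside were those of Micos13, Tinf2 and Pramel12, at -0.9975, -0.9971 and -0.9968. Gains were more frequent than losses: 586 probesets in 471 genes of steady level were higher by 1.0 or more. The lost probesets' own log2 level changed by a median of -1.07, as the gene level was higher on Day 7 for 182 of the 280, and this own level was lower by 1.0 or more in 169. Both Day 7 intensities lay below both Day 0 intensities in 207 members. This follows in part from choosing probesets by their fall, and no share over all probesets of genes of steady level is given beside it.

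**Figure D1:**
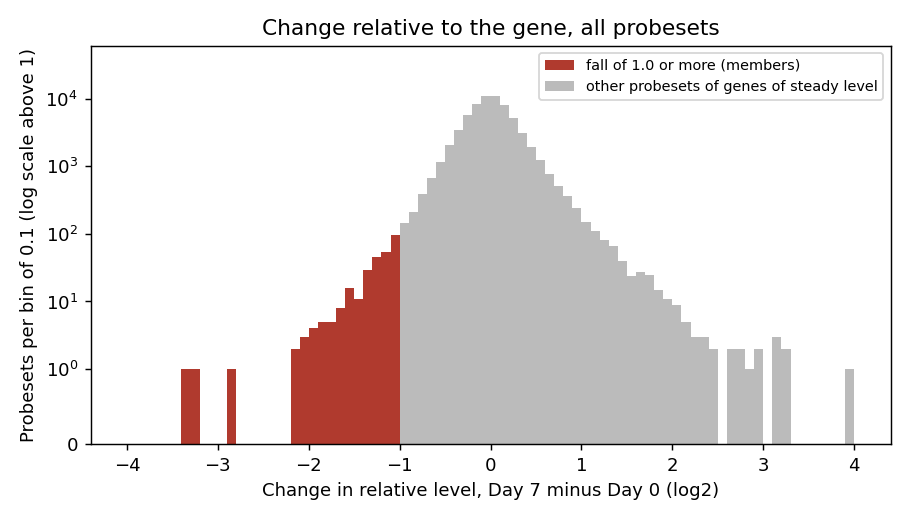
Histogram of the change in relative level, Day 7 minus Day 0 (x axis, log2), over 65938 probesets of genes of steady level; the y axis counts probesets per bin of 0.1 on a log scale above 1, and values beyond 4 are in the last bin. The 280 members (red) are the lower tail, next to 145 probesets in the bin just outside the limit.

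Lost probesets were dim ones. Their median intensity on Day 0 was 159, against 545 over all probesets of genes of steady level. On Day 7 these medians were 61.4 and 532, and on Day 10 they were 82.8 and 433. Their relative level had a median of -2.64 on Day 7 and of -1.41 on Day 0, so they lay under their gene on both days. The share of probesets that were members was 0.789% where the Day 0 intensity was under 25, 2.52% at 25 to 50, 1.89% at 50 to 100, 0.793% at 100 to 250, 0.31% at 250 to 500, 0.248% at 500 to 1000 and 0.0846% at 1000 or more. The gained share was 8.36% under 25 and 0.0952% at 1000 or more. In 47 members (16.8%) the Day 7 mean was under the offset of 16, against 1.25% of all. In 41 (14.6%) at least 1 Day 7 array read under 1, against 0.651% of all. Low Day 7 values follow in part from choosing probesets by their fall. On Day 0 the mean was under 16 in 3 members (1.07%), against 1.29% of all. Of the members, 186 in 169 genes had a Day 0 intensity of 100 or more.

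No lost probeset was called by the test across all probesets. limma was fitted on the relative levels of 107661 probesets in 6563 genes expressed on both days, and a call needed an adjusted p (Benjamini-Hochberg) under 0.05 and a difference of 1.0 or more. It called 0 probesets lower on Day 7 than on Day 0, or 0%, since no adjusted p was under 0.35. Without adjustment, 2101 were lower at p under 0.05, of which 769 by 1.0 or more, and 168 of the 280 members were among them. diffSplice, which sets each probeset against the others of its gene and pools the spread over the gene, called 77 of the 107661 lower, or 0.0715%, with 10 members among them: Exosc4, Fads1, Mta1, Gnas, Epha2, Mycbp2, Fgfr3, Irgq, Set and Col18a1. In simulated data it also called unchanged probesets more often than its threshold allows. The rule used this contrast, so these counts describe the members and test nothing. Both Day 7 arrays lay below both Day 0 arrays in relative level in 232 members (82.9%), against a background of 15.2% over all probesets of genes of steady level, and this too follows from the choice.

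The 2 replicate numbers often disagreed. Read by number, 64 members were lower by 1.0 or more in both, and 32 were unchanged or higher in 1 of them. The Day 0 duplicates were more than 2-fold apart in 92 members (32.9%, against 10.2% of all) and the Day 7 duplicates in 74 (26.4%, against 2.7%). The clearest case is Srsf6, a serine- and arginine-rich splicing factor. Its probeset 5135482 read 1.26 and 801 on Day 7, against 2410 and 942 on Day 0, so that the change was -6.85 in replicate 1, 0.32 in replicate 2 and -3.26 in the mean. Its gene as a whole changed by -0.42. Mink1, a kinase of the germinal centre family, was carried by replicate 2 alone: its probeset 5004737 read 4.76 and 2.01 on Day 7, against 4.81 and 212 on Day 0.

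**Figure D2:**
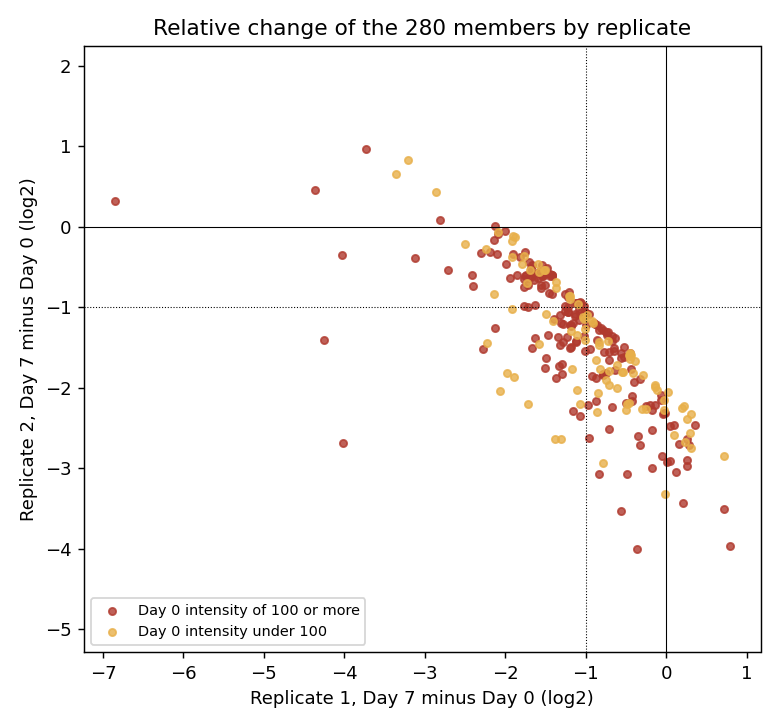
Change in relative level, Day 7 minus Day 0 (log2), of each of the 280 members in replicate 1 (x axis) and replicate 2 (y axis), coloured by Day 0 intensity. Since the mean of both had to be -1.0 or lower, points lie along and under a falling line; 64 are at -1.0 or lower in both, and 32 are at 0 or higher in 1.

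A reading that the choice did not use was had by applying the whole rule to 1 replicate number and reading the other. Chosen on replicate 1, 775 probesets were taken; 52 of them (6.71%) were lower by 1.0 or more in replicate 2, against 2.24% of all probesets of the genes of steady level. Chosen on replicate 2, 1376 were taken; 91 of them (6.61%) were lower by 1.0 or more in replicate 1, against 2.44%. The median change in the number not used was 0.02 for the first choice, as over all probesets (0.02), and 0.23 for the second, against -0.02 over all. Of those chosen on replicate 1, 48.6% were below 0 in replicate 2, against 46.9% of all, and of those chosen on replicate 2 only 35.8% were below 0 in replicate 1, against 51.6% of all. Thus the typical probeset chosen in 1 number was not lower in the other. The share lower by 1.0 or more was 6.65% over both choices, against 2.35% of all. With the Day 7 numbers crossed, a setting added after the data were seen, the share was 11.0% against 1.64%. The number of members also turned on single arrays. Without replicate 1 of Day 0 it was 749 (177 of them among the 280), without replicate 2 of Day 0 511 (119), without replicate 1 of Day 7 617 (172) and without replicate 2 of Day 7 400 (159).

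The most complete loss was in Exosc4, a core subunit of the RNA exosome, which degrades and trims RNA. Probeset 4612012 read 552 and 448 on Day 0, 20.1 and 46.0 on Day 7 and 103 and 133 on Day 10, and the change from Day 0 to Day 7 was -3.35 (SE 0.34). The other 8 probesets of the gene changed by -0.33 to 0.63. On Day 0 this probeset was 1 of the 3 brightest of its gene, and on Day 7 it was the dimmest. Both Day 10 arrays lay between the other days, at -1.69 against Day 0.

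Set, a histone chaperone and phosphatase inhibitor, had the next clear loss. Its probeset 4404576 read 1298 and 1124 on Day 0, 260 and 315 on Day 7 and 145 and 349 on Day 10, with changes of -1.90 (SE 0.27) on Day 7 and -1.57 on Day 10, both against Day 0. The 2 late days overlap each other and neither overlaps Day 0. The other probesets of Set changed by -0.01 to 1.36 on Day 7, and 1 of them, 5244052, was gained: it read 188 and 157 on Day 7, against 53.4 and 75.4 on Day 0. The brightest on Day 0, 5446088, had a mean of 6690 on Day 7 and 6793 on Day 0. Mouse and human Set transcripts are known to differ in their first exons, but which exon these probesets read is not shown by the files used here.

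Among the other large losses, some rested on both arrays of each day and others on 1. Fads1, a fatty acid desaturase, read 0.31 and 31.7 on Day 7, against 238 and 73.1 on Day 0, at a probeset far below its gene (4437898, -2.83), and it was back at 495 and 322 on Day 10. Mta1, a subunit of the NuRD deacetylase complex, read 0.054 and 183 on Day 7, against 346 and 323 on Day 0 (-2.19), so replicate 2 alone gave -0.35. Oard1, a hydrolase that takes ADP-ribose off proteins, read 143 and 0.059 on Day 7, against 113 and 278 on Day 0 (-2.05). In these 3 genes a single Day 7 array near 0 carries much of the mean.

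Rcbtb1, Dctn5 of the dynactin complex and Exoc5 of the exocyst had instead a single high Day 0 array. Exoc5 probeset 5359909 read 158 and 137 on Day 7, against 107 and 1265 on Day 0 (-1.79), so its intensities overlapped and only its levels relative to the gene did not. Dctn5 probeset 4600905 read 111 and 93.0 on Day 7, against 202 and 627 on Day 0 (-1.80). Rcbtb1 probeset 4502888 read 4.15 and 10.9 on Day 7, against 15.1 and 308 on Day 0 (-1.96).

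Fgfr3, a fibroblast growth factor receptor with known alternative exons in its ligand-binding part, was even between duplicates on Day 0. It read 40.3 and 15.4 on Day 7, against 136 and 118 on Day 0 (5206467, -1.72, SE 0.41). Shd, an adaptor with an SH domain that binds phosphotyrosine, read 28.1 and 70.1 on Day 7, against 146 and 139 on Day 0 (5118036, -1.70, SE 0.31). Mycbp2, a ubiquitin ligase of axon growth and synapse formation, read 41.6 and 28.7 on Day 7, against 89.7 and 174 on Day 0 (4358683, -1.72, SE 0.66). Tent2, a cytoplasmic poly(A) polymerase, read 52.8 and 62.2 on Day 7, against 207 and 130 on Day 0 (5046707, -1.63, SE 0.56). Its change was -2.72 in replicate 1 and only -0.54 in replicate 2. Lrrc40 (4398766, -1.62, SE 0.355), Baz2b, a bromodomain protein of chromatin (5426184, -1.61, SE 0.50), and Aebp2 (5373850, -1.59, SE 0.75) complete the 15 largest losses. These 15 are the largest among probesets with a Day 0 intensity of 100 or more and no overlap of the days.

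**Figure D3:**
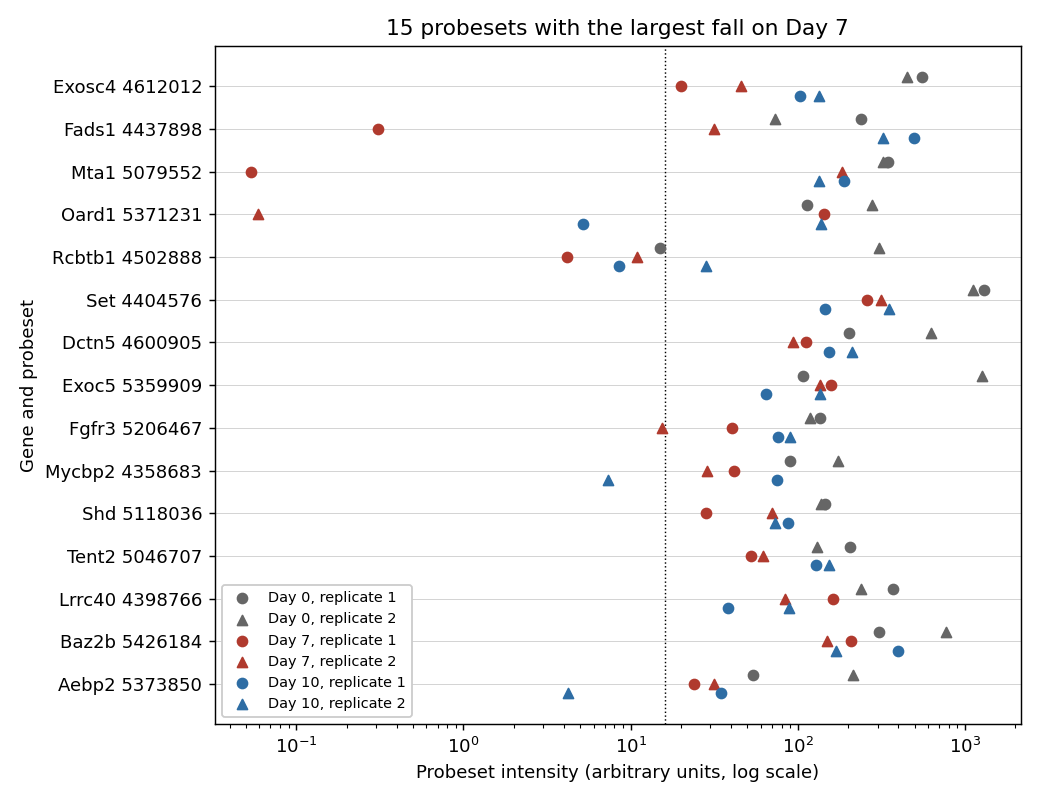
Intensity (x axis, log scale) on each of the 6 arrays for the 15 probesets with the largest loss among those with a Day 0 intensity of 100 or more and no overlap in relative level; grey, red and blue are Day 0, Day 7 and Day 10, circles replicate 1 and triangles replicate 2, and the dotted line is the offset of 16. For Exosc4 and Set the Day 0 arrays lie together and apart from the other days, whereas Mta1 and Oard1 each have 1 Day 7 array under 0.1.

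Most genes lost a single probeset. Of 245 genes, 219 had 1 member, 19 had 2, 6 had 3 and 1 had 5, so 61 members lay in 26 genes with 2 or more. Aebp2, a cofactor of the Polycomb repressive complex that methylates histones, had 5 of its 25 probesets lost. The brightest, 5475799, read 261 and 315 on Day 7, against 503 and 643 on Day 0 (-1.0), and 5016169 read 68.3 and 75.6 on Day 7, against 224 and 254 on Day 0 (-1.59, SE 0.31). The 5 changes ran from -1.59 to -1.0, and no Day 7 array overlapped Day 0 in any of them. The other 20 probesets of Aebp2 changed by -0.84 to 0.19 with a median of -0.35, and 10 of them were within 0.5 of 0, so further probesets of the gene were lower without reaching the limit. On Day 10 the 5 changes against Day 0 ran from -1.44 to -0.29.

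Magi1, a scaffold protein of cell junctions, had 3 lost probesets of 32. Probeset 4790704 read 78.2 and 84.4 on Day 7, against 222 and 213 on Day 0 (-1.56, SE 0.30), and 4580852 read 244 and 232 on Day 7, against 577 and 458 on Day 0 (-1.36, SE 0.27). Both pairs of duplicates lay close together. The third, 4871464, rested on replicate 2 of Day 0 (234 and 268 on Day 7, against 201 and 1153 on Day 0). Of the other 29 probesets, 24 changed by less than 0.5, and 1 was gained: 5350619 read 56.6 and 120 on Day 7, against 30.5 and 3.48 on Day 0 (1.42).

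Sptbn1, the beta spectrin of the membrane skeleton, had 3 of 49. They read 104 and 122, 271 and 241, and 322 and 265 on Day 7, against 242 and 298, 526 and 467, and 442 and 542 on Day 0, for 5270878, 5559217 and 4684563. None of the 3 overlapped, and all were 1.0 or more under Day 0 on Day 10 also (-1.89, -1.25 and -1.19). Another 3 Sptbn1 probesets were gained, with 4884064 at 591 and 893 on Day 7, against 209 and 210 on Day 0 (1.36).

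Shd, Gnas, Stat5a and Plec also had 3 each. In Shd 3 of 12 were lost and the other 9 stayed within 0.5. Lost probeset 5109859 read 13.2 and 17.5 on Day 7, against 14.2 and 105 on Day 0, so it rested on replicate 2 of Day 0. Lost probeset 4805563 changed by -1.68 in replicate 1 and -0.63 in replicate 2. The 3 of Stat5a, a transcription factor of cytokine signalling, were near one another in size, all at -1.1 after rounding, with 5032075 at 102 and 91.9 on Day 7, against 178 and 257 on Day 0. Those of Gnas, the stimulatory G protein alpha subunit, had Day 0 means of 42.1, 47.0 and 84.0, while bright ones were higher on Day 7, with 5129717 at 4327 and 5550 on Day 7, against 1442 and 1849 on Day 0. Several overlapping transcripts carry the Gnas symbol, so its gene level is uncertain. The 3 of Plec, the cytoskeletal linker plectin, had a Day 0 mean under 100 and 2 of them were not lower in replicate 1 (5405199 and 4595589, changes of 0.02 and 0.31).

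**Figure D4:**
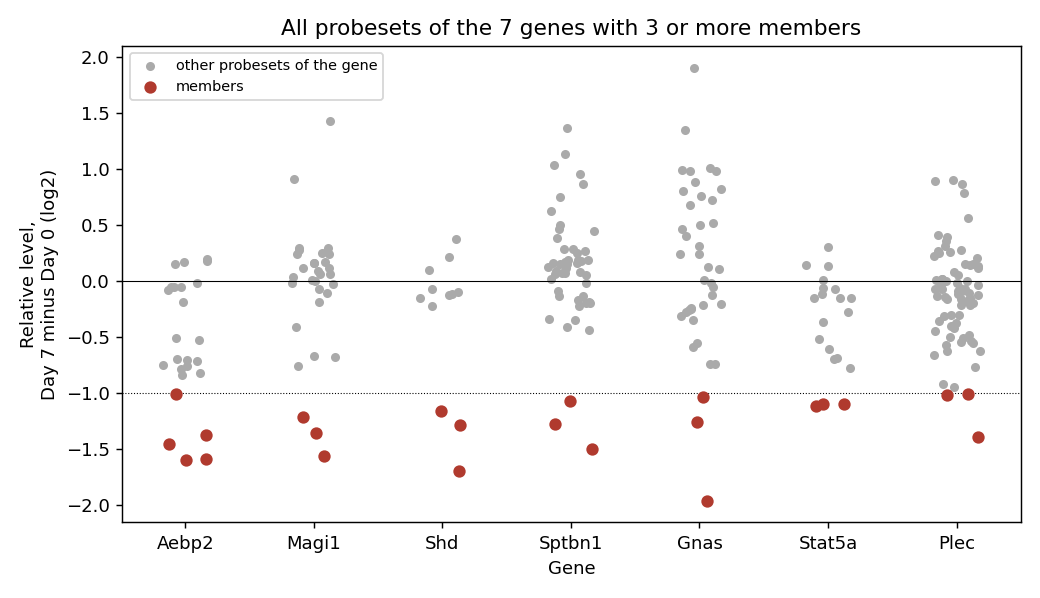
Change in relative level, Day 7 minus Day 0 (y axis, log2), of every probeset of the 7 genes with 3 or more members; red points are members, grey the other probesets, and the dotted line is the limit of -1.0. The grey points reach -0.84 in Aebp2 and -0.94 in Plec, and in Magi1, Sptbn1 and Gnas some lie above 1.0.

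Genes with a loss had a gain about as often as genes of steady level in general. Of the 245 genes with a lost probeset, 30 (12.2%) also had a gained one, against 471 of 3965 (11.9%) of all genes of steady level. Examples besides Set and Sptbn1 are Mta1, where 4629085 read 490 and 501 on Day 7, against 62.5 and 145 on Day 0, and Ptprk, a receptor tyrosine phosphatase of cell contacts. In Ptprk, probeset 4344214 read 475 and 354 on Day 7, against 1299 and 1063 on Day 0 (-1.05), and 5538710 read 538 and 584 on Day 7, against 302 and 225 on Day 0 (1.49). For both Ptprk probesets the Day 7 arrays lay apart from the Day 0 arrays.

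Lists of genes by role were set beside the 6.18% of genes of steady level that had a member. The share per gene rose with the number of probesets. Per probeset the share was 0.425% over all genes of steady level. It was 0.723% for adhesion, 0.531% for kinases, 0.465% for vesicle traffic and 0.46% for the cytoskeleton. Below 0.425% were splicing (0.409%), chromatin (0.364%), known exon switches (0.353%), ubiquitin (0.223%), cell cycle (0.22%), ribosome (0.175%) and metabolism (0.162%). Adhesion molecules and cell surface receptors had 4 of 28 (14.3%): Col18a1, Fgfr3, Magi1 and Ptprk. Col18a1, the basement membrane collagen from which endostatin is cut, read 185 and 158 on Day 7, against 623 and 697 on Day 0 (4752367, -1.54, SE 0.40), and stood at 86.3 and 215 on Day 10. Vesicle traffic and endocytosis had 4 of 34 (11.8%), namely Sec24b of the COPII coat, Trappc9, Vps13a, a lipid transfer protein, and Vps39 of the HOPS tether. Vps39 read 248 and 161 on Day 7, against 311 and 300 on Day 0 (-1.05). At these sizes 1 or 2 genes more or less move such a share widely.

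Splicing and RNA-binding proteins had 4 of 53 (7.55%). Tardbp, the RNA-binding protein TDP-43, read 399 and 448 on Day 7, against 784 and 951 on Day 0 (5144417, -1.30, SE 0.31). Hnrnpab read 143 and 227 on Day 7, against 227 and 494 on Day 0 (5199575, -1.28). Its intensities overlapped narrowly, only its levels relative to the gene did not, and it lay far below its gene (-3.97 on Day 0). Srsf2 read 715 and 972 on Day 7, against 1390 and 1766 on Day 0 (5433207, -1.01). With Srsf6 and its 1 array near 0, the list thus had 3 losses that did not rest on a single reading under 16. Members of these families regulate their own transcripts through alternative exons, which is background and was not measured here.

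Chromatin and transcription factors had 3 of 33 (9.09%): Baz2b, Chd8, a chromatin remodeller, and Sp3, a zinc finger factor. Sp3 read 507 and 381 on Day 7, against 517 and 1281 on Day 0 (4485937, -1.16) and was lower still on Day 10 (160 and 330). Kinases, phosphatases and GTPase regulators had 3 of 35 (8.57%): Abl1, Gnas and Mink1. Abl1, a tyrosine kinase of the cytoskeleton, read 322 and 242 on Day 0, 176 and 137 on Day 7 and 522 and 528 on Day 10 (5542030), so it was low on Day 7 alone.

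In the cytoskeleton list 2 of 31 genes had a member (6.45%), Sptbn1 and Epb41l1. Epb41l1, a linker of spectrin to the membrane in neurons, had 2 lost probesets and read 120 and 239 on Day 7, against 368 and 347 on Day 0, at 5503502. The ubiquitin and folding list had 2 of 35 (5.71%; Herc2 and Ube4a), and cell cycle and DNA repair 2 of 38 (5.26%; Cdc7 and Ercc5). Of these, Cdc7, the kinase that fires replication origins, was the brightest, with 298 and 384 on Day 7, against 528 and 750 on Day 0 (4847903, -1.13). Genes with known exon switches between cell types had 1 of 29 (3.45%; Gnas), metabolism and mitochondria 1 of 30 (3.33%; Dhodh) and ribosome and translation 1 of 31 (3.23%; Eif4e2).

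A narrower set of 43 probesets in 41 genes had a change of -1.0 or lower in both replicate numbers. These also had a Day 0 intensity of 100 or more and no overlap in relative level. They were picked by the same fall, which does not make each of them well measured. Fads1 (SE 0.74) and Top3b (SE 0.72) are among them. In 4 of the 43 the Day 0 duplicates were more than 2-fold apart (9.30%, against 32.9% of all members). Besides Exosc4, Set, Magi1, Col18a1, Sptbn1 and Trappc9 the 43 held bright probesets of several other genes, named after their values were seen. Cdk10, a cyclin-dependent kinase, read 391 and 367 on Day 7, against 716 and 664 on Day 0 (5133632, -1.21). Trp53bp1, a DNA damage response protein, read 802 and 744 on Day 7, against 1286 and 1573 on Day 0 (4836466, -1.03). Ogfod2 read 164 and 200 on Day 7, against 518 and 442 on Day 0 (4335811, -1.20, SE 0.20), and Fastkd3, a mitochondrial RNA-binding protein, 252 and 350 on Day 7, against 794 and 639 on Day 0 (5075286, -1.27, SE 0.21). In these 4 genes neither Day 7 array overlapped Day 0, and on Day 10 the duplicates of Trp53bp1 were far apart (302 and 638).

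On Day 10 the lost probesets mostly lay between their Day 0 and Day 7 levels relative to the gene. The genes were chosen as steady between Day 0 and Day 7 only, so a gene level that moved by Day 10 also moves these values. The median change of the members against Day 0 was -0.68 on Day 10, against 0.03 over all probesets of genes of steady level, and single members ran from -2.39 to 2.30. Markers of undifferentiated cells moved as well: their summed intensity was 17710 and 19570 on Day 0, 944.5 and 2240 on Day 7 and 1477 and 6890 on Day 10, with replicate 2 of Day 10 apart from replicate 1 (Pou5f1 at 11.18 and 8.39), and their part in the Day 10 levels was not tested. In 169 members the Day 10 mean lay between Day 0 and Day 7, in 59 at or below Day 7, and in 52 at or above Day 0. By a limit of 1.0, 95 members (33.9%) were still low on Day 10, against 1.73% of all probesets of these genes. Day 10 and Day 7 are set against the same Day 0 arrays that chose the members, so these shares carry that choice with them. Without replicate 1 of Day 0 the share still low was 60.1%, without replicate 2 of Day 0 22.1% and without replicate 2 of Day 7 18.5%, each with the members chosen anew. In the fit, limma called 0 probesets lower on Day 10 than on Day 0 (0%), with 3467 lower at an unadjusted p under 0.05, and 0 higher on Day 10 than on Day 7 (0%), with 2315 higher at an unadjusted p under 0.05; diffSplice was not run on these contrasts.

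Of these 43 losses, 15 (34.9%) were still low by 1.0 or more on Day 10, much as among all members (33.9%). On Day 10, 38 of the 43 (88.4%) lay below Day 0. This share was 81.4% among all members and 46.4% over all probesets of genes of steady level. Sptbn1, Set, Exosc4 and Col18a1 were among those that stayed low, as was Hnrnpab, whose Day 7 and Day 0 intensities overlapped. Cdk10 stood at 368 and 384 on Day 10, almost the same as on Day 7. Polr3f, a subunit of RNA polymerase III, was back in relative level but not in intensity (4394740, -1.30 on Day 7 and -0.01 on Day 10, both against Day 0). It read 515 and 549 on Day 0, 369 and 222 on Day 7 and 315 and 392 on Day 10. Its gene level was 7.94, 8.39 and 7.37 on Days 0, 7 and 10. In level relative to the gene, Tent2 (0.14) and Chd8 (0.95) were above Day 0 on Day 10. The gene levels were then 8.66 for Tent2 and 8.60 for Chd8, against 9.01 and 9.35 on Day 0. The intensities of Tent2 were then 129 and 154, against 207 and 130 on Day 0, so its own mean was not back at Day 0.

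**Figure D5:**
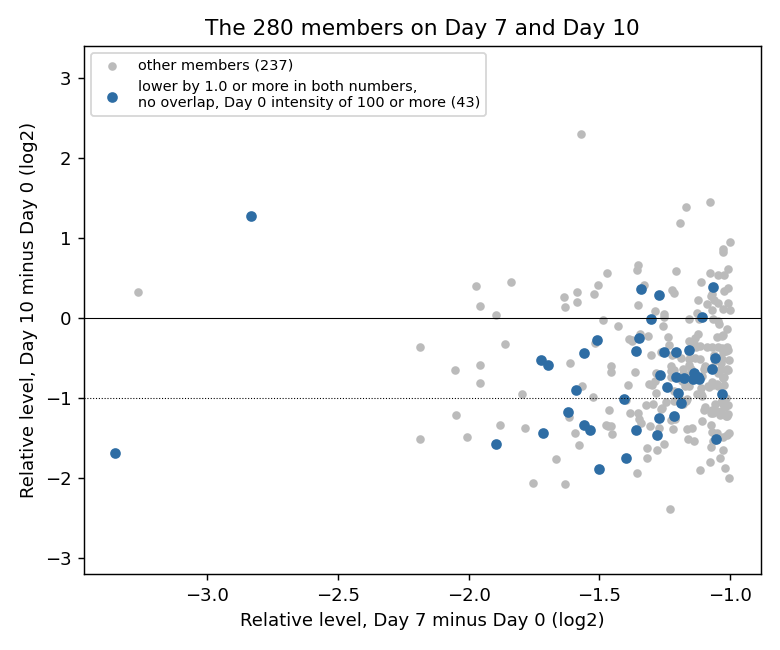
Change in relative level against Day 0 (log2) on Day 7 (x axis) and Day 10 (y axis) for the 280 members; blue points are the 43 members lower by 1.0 or more in both replicate numbers without overlap and with a Day 0 intensity of 100 or more. The dotted line marks -1.0 on Day 10, with 95 members at or under it, and Fads1 is the blue point at 1.28.

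Lost probesets were spread over genes of all sizes and over the genome. Per probeset the share was 0.544% in genes with 6 to 9 probesets, 0.516% with 10 to 19, 0.317% with 20 to 39 and 0.345% with 40 or more, against 0.425% overall. Per gene it was 3.88% and 11.8% at the ends of that order. By chromosome of the gene (GRCm38.p6), the share of genes of steady level with a member was 9.7% on chromosome 15 (16 of 165) and 3.1% on chromosome 8 (7 of 226), the ends of the range over the autosomes and X.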

How the data were processed

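Values were exon-level intensities on a linear scale, deposited by the authors in 1 table for 228090 core probesets of the Affymetrix Mouse Exon 1.0 ST Array. According to the study's methods they were sketch-normalized and summarized with PLIER, whereas the submitters' notes name RMA and Affymetrix Expression Console; no version is given. PLIER leaves dim probesets near 0, so the offset of 16 sets the size of their changes. Genes were named from the platform's annotation: 208093 probesets had 1 symbol, 4327 had several and 15670 had none, and probesets with several or none were not used. Old symbols were updated through RefSeq (GRCm38.p6). All 6 columns were mapped, with 0 left over. No depth exists for arrays, and 2 arrays a day limit the precision.

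The members and the gene lists were chosen with earlier results of these data known. Relative levels were computed as in the results. limma 3.58.1 in R 4.3.3 (lmFit, eBayes, Benjamini-Hochberg adjustment) was fitted over 3 days without a replicate term; p-values measure the spread between these duplicates. limma and diffSplice were tested on simulated data with known changes. Named were the 15 largest changes with a Day 0 intensity of at least 100 and no overlap, genes with 3 or more members, members among the study's candidates, up to 4 genes per list with the largest change, and the 3 probesets on each side of the limit. Figures were drawn with matplotlib 3.10.9.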

Additional observations from a re-analysis of the deposited data

How the results depend on the processing

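The number of members depended on the offset: 280 with 16, 127 with 50 and 606 with 1, of which 107 and 249 were among the 280. It was 186 with a Day 0 intensity of 100 or more, 72 under a stricter fall, 147 with gene change within 0.25 and 141 with a gene level of 8.5 or more. With mean gene levels, median polish, quantile normalization or centred arrays it was 243, 274, 388 and 328, with 159, 182, 261 and 259 of the 280 among them. Leaving out 1 array gave 280 to 749 members. The 280 is for each Day 10 array, which the rule does not use, so it could not change. Leaving out any Day 0 or Day 7 array gave more than 280. limma made 0 calls of a lower relative level on Day 7 under each alternative but 2: diffSplice made 77, and the fit without a minimum gene level made 6. Leaving out 1 array gave 0 to 0 calls. The share of members still low on Day 10 was 33.9%, and 29.9% with an offset of 50, 41.3% with an offset of 1, 28.0% with mean gene levels and 18.5% to 60.1% when 1 array was left out. The share read as lower by 1.0 or more in the other replicate number was 6.65%, and 5.79% with an offset of 50 (1.47% of all), 6.02% at a Day 0 intensity of 100 or more (1.63% of all) and 11.0% with crossed Day 7 numbers (1.64% of all). The 59 named probesets were at -1.0 or lower in 651 of 767 values under 13 alternatives; being chosen for their fall on these arrays, they say nothing of stability. The cause of these shifts was not tested.

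Whether the replicate numbers pair the samples is not known. Deviations of same-numbered arrays correlated at -0.201 between Day 7 and Day 0 and at -0.172 between Day 10 and Day 7. Between Day 10 and Day 0 the correlation was positive, at 0.353. With so few arrays a day, these values of mixed sign cannot decide whether same-numbered arrays belong together. With the replicate number as a block limma made 0 calls, and 0 with the Day 7 numbers crossed, a setting chosen after the data were seen.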
